A study of Mus musculus with 12 samples.

Results

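The 30 genes described here are the enzymes of cholesterol synthesis and the proteins that regulate the sterol content of a cell. They were taken from a list of gene symbols, chosen with earlier results of these data known, and all 30 were among the 23163 genes of the count table. Sequenced RNA came from a brown and a subcutaneous white fat depot (BAT and sWAT) of male wild-type C57Bl/6 mice aged 8 to 12 weeks. The labels give 20 mice, of which 10 spent 72 hours at 30 °C (thermoneutral) and 10 spent 72 hours at 4 °C (cold). The 4 groups, BAT cold, BAT thermoneutral, sWAT cold and sWAT thermoneutral, had 3 libraries each, made from 1000 ng of total RNA. All animals shared strain, sex, age range, free access to food and a light-dark cycle, and no group carried a transgene or a drug. The labels do not say whether a library holds 1 animal or a pool, so p-values measure the spread between these samples, which may in part be technical.

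Cholesterol is built from acetyl-CoA through mevalonate and isoprenoid units, which are joined into squalene, closed into lanosterol and trimmed to cholesterol. When sterol in the endoplasmic reticulum is low, the escort protein SCAP carries the transcription factor SREBP2 to the Golgi, where a pair of proteases frees its active part, and INSIG proteins hold the complex back when sterol is high. Adipose tissue is a large store of cholesterol, and excess sterol leaves cells through ABC transporters that are switched on by the nuclear receptor LXR.

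Libraries held 27117934 to 56243016 counts. Levels are given as CPM, a gene's share of a library's counts scaled by total and by composition (TMM factor) to a common size. In the 3 sWAT thermoneutral libraries the 13 mitochondrially encoded genes took 0.181% to 0.307% of counts, against 17.6% to 53.8% in the other 9, and GC-rich genes had higher levels there, with slopes of 0.87 to 1.46 log2 units per 10 points of GC against -0.72 to 0.32 elsewhere. Those 3 libraries therefore stand apart, and in sWAT this difference between libraries and the effect of temperature cannot be told apart. Of the marker genes only Zic1, of brown adipocytes, was at 0 in a library, in sWAT thermoneutral, and Ucp1, which marks brown adipocytes, was at 20029 to 22940 CPM in BAT cold, 1397 to 2550 in BAT thermoneutral, 3245 to 13246 in sWAT cold and 41.3 to 380 in sWAT thermoneutral. Sums of the 7 brown adipocyte markers were 25748 to 29052 CPM in BAT cold and 5987 to 6521 in BAT thermoneutral. In sWAT they were 4630 to 17413 in cold and 246 to 1106 at thermoneutrality. By the test below, 4 of the 7 were higher and 0 lower in BAT cold, beside 6.82% and 5.34% of all genes. In sWAT cold 5 of the 6 tested were higher and 0 lower, beside 25.1% and 24.1%. Cox8b overlapped in BAT, at 205 to 429 CPM in cold and 150 to 716 at thermoneutrality. Summed levels of 12 macrophage markers were 1011 to 1638 CPM in sWAT thermoneutral and 323 to 513 in sWAT cold, and those of 12 lymphocyte markers 929 to 1233 and 203 to 578. Of the macrophage genes 6 were lower in sWAT cold (50%), 1 was higher (8.33%) and 5 were neither. Of the lymphocyte genes 8 were lower (66.7%) and 0 higher. The shares of all genes in sWAT, 25.1% higher and 24.1% lower in cold, stand beside every sWAT marker count here. Lyz2 was at 361 to 908 CPM in sWAT thermoneutral and 129 to 221 in sWAT cold, whereas Mrc1 was at 3.58 to 11.1 and 14.9 to 23.4. In BAT the macrophage sums were 128 to 196 (thermoneutral) and 120 to 133 (cold), the lymphocyte sums 7.40 to 11.0 and 3.83 to 5.69. Summed levels of 12 skeletal muscle markers were 135 to 5771 CPM in sWAT thermoneutral and 8181 to 22622 in sWAT cold, without overlap, with 8 of the 12 genes higher in cold and 0 lower. Those of 7 adipocyte markers did not overlap in sWAT either, at 6205 to 10079 CPM (thermoneutral) and 14782 to 23409 (cold). However, only 2 of the 7 genes were higher in cold (28.6%, near the 25.1% of all genes). Of the others 0 were lower and 5 were neither, and the median log2 fold change of the 7 was 0.05. Fabp4 alone was at 464 to 1451 CPM in sWAT thermoneutral and 7767 to 13540 in sWAT cold. The sums of 8 endothelial markers in sWAT were 340 to 500 and 454 to 586, with 5 genes higher in cold and 2 lower. In BAT the muscle sums were 4053 to 13208 CPM at thermoneutrality and 4327 to 6852 in cold, the adipocyte sums 14222 to 15040 and 14204 to 23465, and the endothelial sums 637 to 1079 and 984 to 1146. The part of these shifts in the results on the sterol genes was not tested, and in bulk tissue fewer cells of a type and less RNA per cell cannot be told apart.

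In BAT, 9 of the 30 sterol genes were higher in cold and 2 lower, where a gene counts as higher or lower at an adjusted p under 0.05 in edgeR's quasi-likelihood test over all genes. The share of all 14612 genes tested that changed in BAT was 12.2%, with 6.82% higher and 5.34% lower. The median log2 fold change of the 30 genes was 0.79 in BAT, against -0.04 for all genes. With upper-quartile scaling, which moved the median of all genes from -0.04 to -0.20, 8 members were higher and 3 lower, and the shares over all genes became 5.30% higher and 7.45% lower. Leaving out BAT cold library 1 or 2 left 6 members past the threshold, beside 3.48% and 3.01% of all genes, and leaving out BAT thermoneutral library 1 or 2 left 7, beside 3.96% and 3.38%. In sWAT, 15 members were higher in cold and 3 lower, beside 49.2% of the 15731 genes tested there, 25.1% higher and 24.1% lower. Their median was 0.94 in sWAT against 0.00 for all genes.

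**Figure D1:**
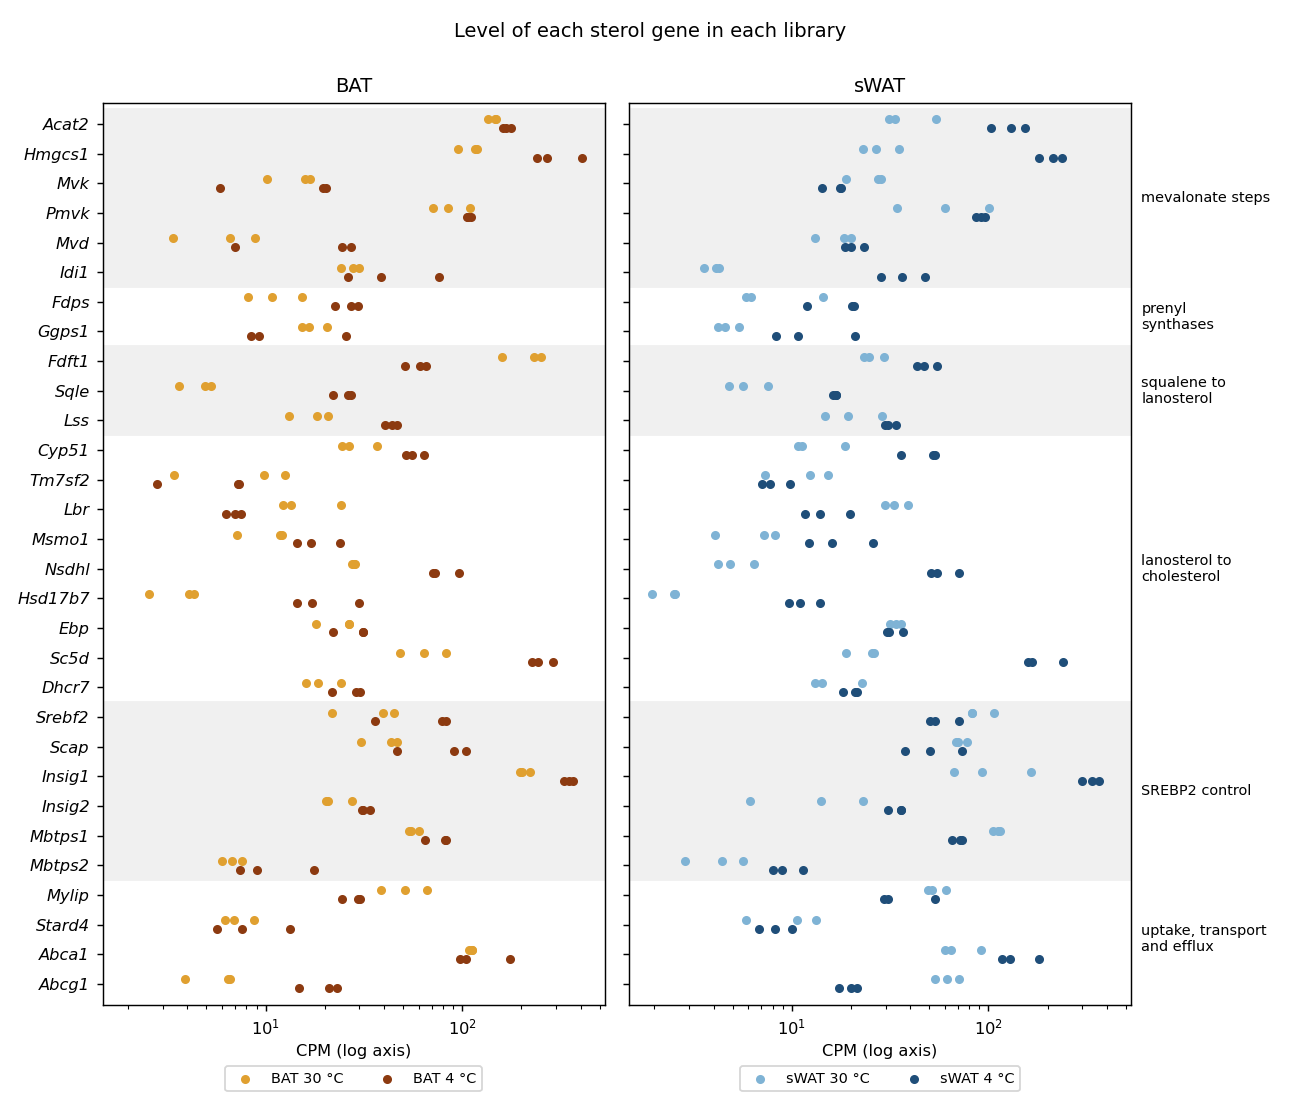
Levels of the 30 sterol genes as CPM (log axis) in BAT (left) and sWAT (right), each point 1 library, with cold and thermoneutral libraries in different colours and genes ordered by their place in the pathway. Fdft1 stands between 160 and 252 in BAT thermoneutral and between 51.1 and 65.3 in BAT cold, and the order of the groups is the other way round in sWAT.

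**Figure D2:**
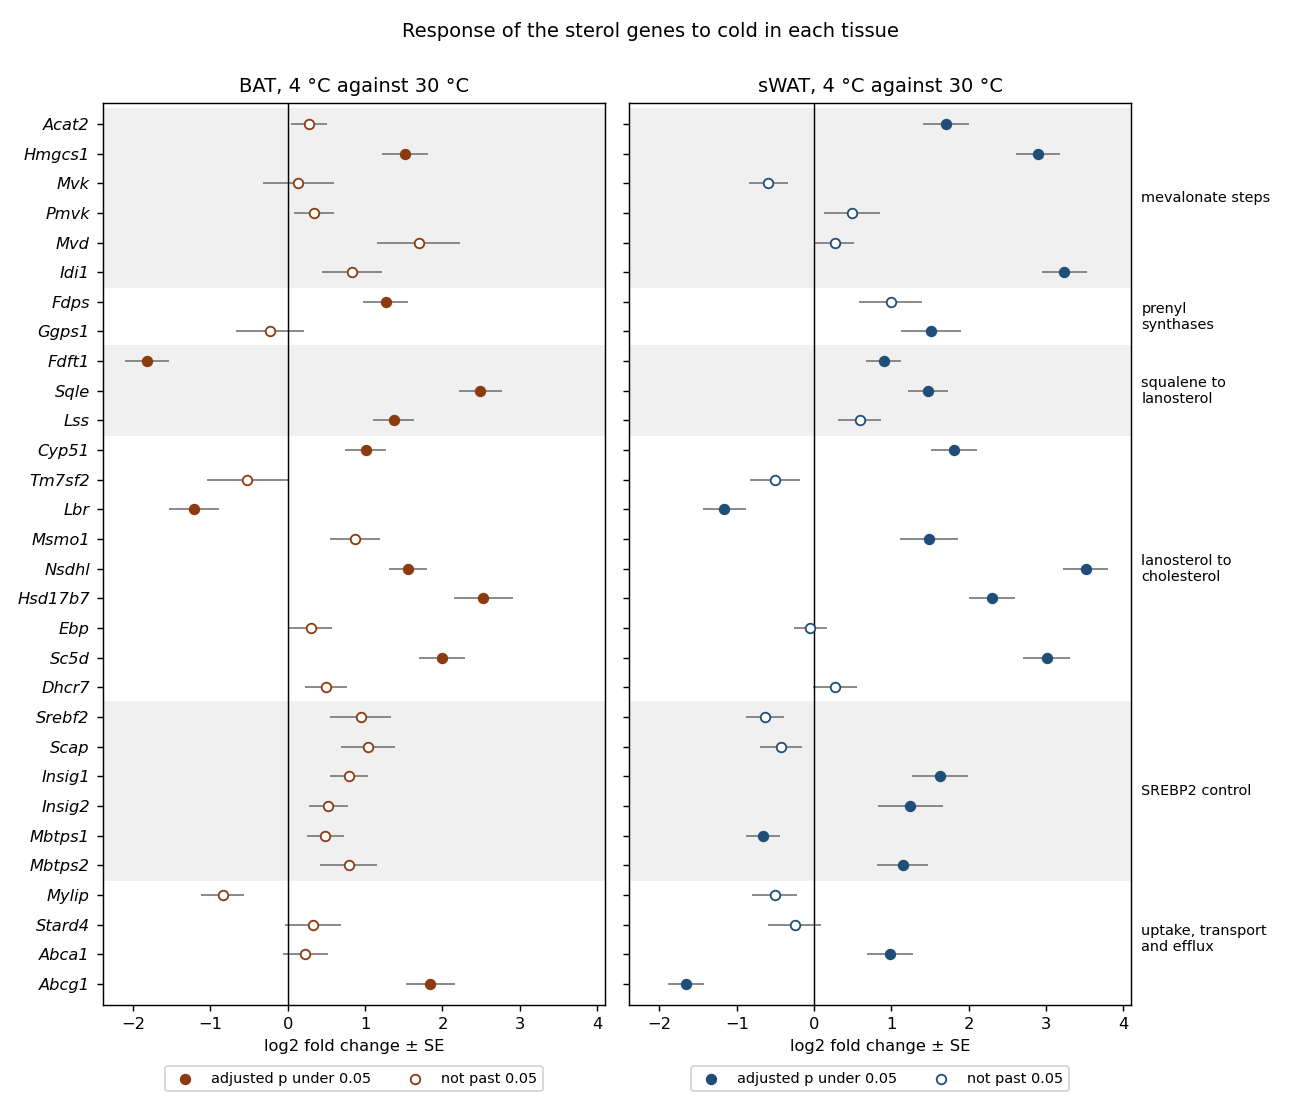
Log2 fold change of each sterol gene, cold against thermoneutral, with its standard error, in BAT (left) and sWAT (right); filled points passed an adjusted p of 0.05 in edgeR's test. In BAT 9 filled points lie to the right of 0 and 2 to the left, in sWAT 15 and 3.

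Between tissues, 6 members were higher in cold in both (Hmgcs1, Sqle, Cyp51, Nsdhl, Hsd17b7 and Sc5d) and Lbr was lower in both. Fdft1 and Abcg1 passed the threshold in opposite directions. Another 8 members were past the threshold as higher in sWAT and not in BAT, Mbtps1 was past it as lower in sWAT and not in BAT, Fdps and Lss were past it in BAT and not in sWAT, and 10 were past it in neither tissue. The cold and thermoneutral libraries did not overlap for 17 members in BAT, with 14 all higher and 3 all lower, beside 16.3% and 19.3% of all genes tested. In sWAT 16 were all higher and 5 all lower, beside 30.1% and 30.5%.

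Promoter sequences of the members are described here, and their part in the responses to cold was not tested. RefSeq promoters (250 bases before to 50 after the start, build GRCm38.p6) were found for 25 of the 30 genes, and not for Fdps, Fdft1, Sqle, Stard4 and Abcg1. Both strands were searched for 2 motifs. They were the sterol regulatory element TCACNCCAC, the kind of site SREBP2 binds, and the CCAAT box CCAAT, bound by the factor NF-Y. In the printed promoters no match of one motif overlapped a match of the other. The sterol element was present in 1 of the 25, Hmgcs1, against 1.44% of 27025 genes with a promoter, and the CCAAT box in 20 of the 25 (80%) against 41.1%. The CCAAT box was in 16 of the 17 synthesis enzymes with a promoter (94.1%), in all 6 members with a promoter that were higher in BAT (100%) and in 14 of the other 19 (73.7%). All 6 are themselves synthesis enzymes, whereas the other 19 also hold genes of SREBP2 control, uptake and efflux. The members with a promoter but no CCAAT box were Acat2, Scap, Mbtps1, Mbtps2 and Abca1. The shares of 100% and 73.7% thus compare unlike sets of genes. A match is a run of letters and not a measured site, and a window without one says only that these letters are not in it. The promoters of the 5 members with a promoter and the smallest adjusted p among those higher in BAT are printed 5′ to 3′ on the gene's strand, with matches in capitals (ATTGG is CCAAT on the other strand, and TCACCCCAC in Hmgcs1 is the sterol element). Sc5d lies at chr9:42264251-42264550 (minus strand), Hsd17b7 at chr1:169969156-169969455 (minus), Nsdhl at chrX:72918271-72918570 (plus), Lss at chr10:76531355-76531654 (plus) and Hmgcs1 at chr13:119690101-119690400 (plus).
Hmgcs1: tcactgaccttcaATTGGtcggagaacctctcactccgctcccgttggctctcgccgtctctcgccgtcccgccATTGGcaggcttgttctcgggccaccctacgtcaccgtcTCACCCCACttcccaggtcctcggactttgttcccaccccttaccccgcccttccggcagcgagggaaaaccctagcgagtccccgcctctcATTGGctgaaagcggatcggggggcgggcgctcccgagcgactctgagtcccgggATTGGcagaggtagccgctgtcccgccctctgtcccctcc
Lss: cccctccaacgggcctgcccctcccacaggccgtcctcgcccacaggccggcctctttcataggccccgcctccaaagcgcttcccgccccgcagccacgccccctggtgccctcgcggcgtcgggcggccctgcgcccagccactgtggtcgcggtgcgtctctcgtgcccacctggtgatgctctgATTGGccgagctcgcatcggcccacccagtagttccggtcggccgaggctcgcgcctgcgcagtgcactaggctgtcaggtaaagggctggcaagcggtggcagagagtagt
Nsdhl: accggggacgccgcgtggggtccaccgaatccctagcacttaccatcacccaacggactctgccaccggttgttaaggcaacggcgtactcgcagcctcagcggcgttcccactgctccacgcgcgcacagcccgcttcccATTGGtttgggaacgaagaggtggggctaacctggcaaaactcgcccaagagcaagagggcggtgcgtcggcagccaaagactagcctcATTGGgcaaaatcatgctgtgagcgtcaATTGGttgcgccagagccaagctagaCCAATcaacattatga
Hsd17b7: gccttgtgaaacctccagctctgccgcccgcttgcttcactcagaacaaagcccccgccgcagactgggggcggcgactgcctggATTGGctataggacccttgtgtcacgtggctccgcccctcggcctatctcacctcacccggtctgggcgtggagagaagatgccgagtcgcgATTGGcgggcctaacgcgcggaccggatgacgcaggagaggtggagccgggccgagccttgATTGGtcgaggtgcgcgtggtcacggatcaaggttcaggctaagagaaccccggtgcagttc
Sc5d: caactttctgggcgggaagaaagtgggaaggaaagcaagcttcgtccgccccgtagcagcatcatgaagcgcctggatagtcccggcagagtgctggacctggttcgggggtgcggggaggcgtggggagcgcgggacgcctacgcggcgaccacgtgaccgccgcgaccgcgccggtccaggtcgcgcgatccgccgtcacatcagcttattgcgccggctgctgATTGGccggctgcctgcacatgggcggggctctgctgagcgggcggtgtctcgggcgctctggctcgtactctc

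Hmgcs1 carried 4 CCAAT boxes and its sterol element began 137 bases before the start. Nsdhl carried 4 CCAAT boxes and Hsd17b7 3, whereas Lss and Sc5d carried 1 each.

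Among the 6 genes of the mevalonate steps, 1 was higher in BAT in cold (Hmgcs1) and 3 in sWAT (Acat2, Hmgcs1 and Idi1), beside 6.82% and 25.1% of all genes. Hmgcs1, the synthase that makes HMG-CoA (chromosome 13, 119690379 to 119708260, mm10 as for all gene positions here), was at 271, 240 and 407 CPM in BAT cold libraries 1, 2 and 3 and at 95.3, 119 and 117 in BAT thermoneutral libraries 1, 2 and 3. Its sWAT cold libraries were at 212, 181 and 238 and the thermoneutral ones at 35.0, 26.7 and 23.1. All cold libraries of a tissue were above all thermoneutral ones, and BAT cold library 3 was the highest of the 12. The log2 fold change of Hmgcs1 was 1.52 ± 0.30 (SE) in BAT (adjusted p = 0.0162, edgeR) and 2.90 ± 0.29 in sWAT (adjusted p = 0.000308). In BAT its adjusted p ran from 5.08e-05 to 0.0705 over 17 alternatives, and the omission of BAT cold library 1 (0.0534) or of either thermoneutral library 1 (0.0705) or 2 (0.0677) ended the call.

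Idi1, the isomerase that makes the reactive isoprenoid unit dimethylallyl diphosphate, had the second largest response in sWAT. Its sWAT cold libraries were at 47.7, 28.3 and 36.2 CPM and the thermoneutral ones at 3.56, 4.12 and 4.28. The groups lay far apart in sWAT, with a log2 fold change of 3.23 ± 0.29 (edgeR adjusted p = 0.000257). In BAT the cold libraries were at 38.6, 26.2 and 76.3 CPM and the thermoneutral ones at 24.1, 29.9 and 27.8, so that cold library 2 lay among the thermoneutral ones and library 3 alone stood high. The BAT change was 0.83 ± 0.39 (adjusted p = 0.197). Acat2, the cytosolic thiolase that joins acetyl-CoA units, was at 103, 154 and 131 CPM in sWAT cold against 53.9, 33.3 and 31.1 in sWAT thermoneutral, without overlap. In BAT its cold libraries, at 168, 178 and 162, were also all above the thermoneutral ones, at 149, 148 and 136, but by little. Its log2 fold changes were 1.71 ± 0.30 in sWAT (adjusted p = 0.00234) and 0.28 ± 0.23 in BAT (adjusted p = 0.466).

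The 3 enzymes that phosphorylate and decarboxylate mevalonate, Mvk, Pmvk and Mvd, did not pass the threshold in either tissue. Mvd, the decarboxylase, was at 27.3, 24.5 and 7.01 CPM in BAT cold against 8.81, 6.59 and 3.39 in BAT thermoneutral. Both libraries numbered 3 were the lowest of their group, and BAT cold library 3 lay within the thermoneutral range. The log2 fold change of Mvd in BAT was 1.69 ± 0.54 (adjusted p = 0.0758), and with the library number as a block 1.58 (adjusted p = 0.0125), within a range of 7.05e-05 to 0.209 over the alternatives. Without BAT cold library 3 it was 2.10 (adjusted p = 0.0144). In sWAT Mvd was at 0.27 ± 0.25 (adjusted p = 0.396), and with a correction for GC content at 1.24 (adjusted p = 0.0023). Pmvk likewise went from 0.49 (adjusted p = 0.29) to 1.34 (adjusted p = 0.0108) in sWAT, or to 0.97 (adjusted p = 0.0432) without sWAT thermoneutral library 1, and Mvk from -0.59 (adjusted p = 0.0767) to 0.16. These 3 genes are GC-rich, with 56.3% to 59.0% GC in their longest transcripts.

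Of the enzymes that make longer prenyl diphosphates, Fdps, the farnesyl diphosphate synthase, was at 27.4, 29.6 and 22.5 CPM in BAT cold against 15.3, 10.8 and 8.19 in BAT thermoneutral. The BAT groups did not overlap, with a log2 fold change of 1.26 ± 0.30 (edgeR adjusted p = 0.0294). The call did not hold when BAT cold library 1 (0.102) or 2 (0.121) or thermoneutral library 2 (0.111) was omitted, in a range of 0.000847 to 0.121. In sWAT, Fdps was at 11.9, 20.3 and 20.7 CPM in cold and 14.4, 6.20 and 5.84 at thermoneutrality, which overlap, with a change of 0.99 ± 0.41 (adjusted p = 0.0717). Leaving out sWAT cold library 1 (1.21, adjusted p = 0.0279) or thermoneutral library 1 (1.57, adjusted p = 0.0123) brought the sWAT value past the threshold, in a range of 0.0123 to 0.213. Exons of Fdps share 26.7% of their length with the gene model Gm43738 on the same strand, so reads there cannot be assigned with certainty.

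Ggps1, which makes geranylgeranyl diphosphate for the tethering of small GTPases to membranes, was at 21.1, 8.27 and 10.8 CPM in sWAT cold against 5.36, 4.58 and 4.2 in sWAT thermoneutral. The groups did not overlap and the log2 fold change was 1.51 ± 0.38 (edgeR adjusted p = 0.0114). With the GC correction it was 0.10 (adjusted p = 0.827), and this gene has one of the lowest GC contents of the 30, 40.1%. In BAT the cold libraries were at 9.25, 8.45 and 25.5 CPM and the thermoneutral ones at 15.4, 16.6 and 20.4. BAT cold libraries 1 and 2 were thus below all thermoneutral libraries and library 3 above them. The BAT change was -0.23 ± 0.44 (adjusted p = 0.76), and without BAT cold library 3 it was -0.94 (adjusted p = 0.0456), in a range of 0.00603 to 0.987 over the alternatives.

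The 3 enzymes from farnesyl diphosphate to lanosterol did not move together in BAT, where Sqle and Lss rose and Fdft1 fell. Fdft1, the squalene synthase that commits prenyl units to sterols (chromosome 14, 63145150 to 63179578), was at 61.0, 65.3 and 51.1 CPM in BAT cold against 160, 231 and 252 in BAT thermoneutral. In sWAT it was at 43.1, 54.8 and 46.7 CPM in cold and 23.2, 24.8 and 29.4 at thermoneutrality. Cold libraries were all lower in BAT and all higher in sWAT, so that the cold groups of the tissues came close to each other from opposite sides. The log2 fold change of Fdft1 was -1.82 ± 0.29 in BAT (edgeR adjusted p = 0.0076) and 0.90 ± 0.22 in sWAT (adjusted p = 0.01). It kept its sign and stayed past the threshold in each of the 17 alternatives in BAT (-2.02 to -1.59) and the 16 in sWAT (0.83 to 1.15). Exons of Fdft1 share 774 bases, 18.3% of their length, with Ctsb on the opposite strand, and whether counting used strand is not given in the sources used here. Ctsb itself was at 0.83 ± 0.28 in BAT (adjusted p = 0.0869) and 0.86 ± 0.33 in sWAT (adjusted p = 0.0564).

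Sqle, the squalene epoxidase and a slow step of the later pathway (chromosome 15, 59315077 to 59331192), was at 27.4, 22.0 and 26.2 CPM in BAT cold against 4.92, 5.31 and 3.65 in BAT thermoneutral. Its sWAT cold libraries were at 16.8, 16.2 and 16.7 CPM and the thermoneutral ones at 5.66, 7.53 and 4.79. The thermoneutral levels of the tissues overlapped, whereas in cold every BAT library was above every sWAT library. The log2 fold change was 2.49 ± 0.28 in BAT (edgeR adjusted p = 0.00236), the smallest adjusted p of the 30 genes there, and 1.47 ± 0.26 in sWAT (adjusted p = 0.00234). Lss, which closes epoxidised squalene into lanosterol, was at 46.7, 44.1 and 40.6 CPM in BAT cold against 18.3, 20.8 and 13.2 in BAT thermoneutral, without overlap. In sWAT it was at 30.9, 33.8 and 29.8 in cold and 28.6, 19.3 and 14.8 at thermoneutrality, with thermoneutral library 1 just below the cold ones. The changes of Lss were 1.37 ± 0.26 in BAT (adjusted p = 0.0149) and 0.59 ± 0.28 in sWAT (adjusted p = 0.112). The BAT call did not hold when cold library 1 (0.0672) or 2 (0.0654) or thermoneutral library 1 (0.0615) was omitted, in a range of 7.15e-05 to 0.0672, and the sWAT value passed without thermoneutral library 1 (0.90, adjusted p = 0.0271), in a range of 0.0271 to 0.281.

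**Figure D3:**
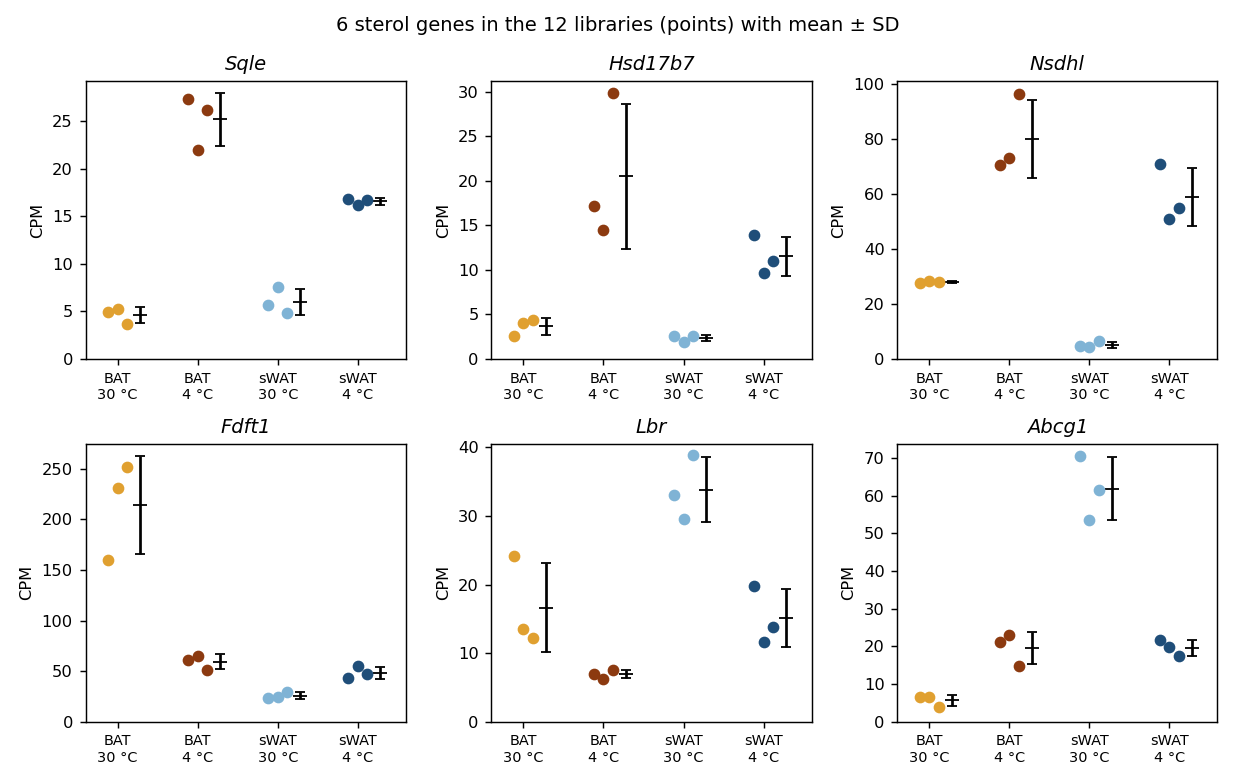
CPM in each of the 12 libraries for 6 sterol genes (points), with the mean (short mark) and SD (bars) of each group of 3 beside them, on an axis of its own per gene. Fdft1 and Abcg1 move in opposite directions in BAT and sWAT, whereas Sqle is higher in cold in both.

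Of the 9 genes between lanosterol and cholesterol, 4 rose and 1 fell in BAT, beside 6.82% and 5.34% of all genes. In sWAT 5 of them rose and 1 fell, beside 25.1% and 24.1%. Nsdhl, a dehydrogenase in the removal of methyl groups from the sterol ring (chromosome X, 72918557 to 72958514), had the largest log2 fold change of the 30 genes in sWAT. It was at 71.0, 50.9 and 55.0 CPM in sWAT cold against 4.82, 4.22 and 6.41 in sWAT thermoneutral, and at 70.7, 73.1 and 96.6 in BAT cold against 27.7, 28.5 and 28.2 in BAT thermoneutral. The groups did not overlap in either tissue, and the sWAT thermoneutral libraries were lowest by far. The log2 fold changes of Nsdhl were 1.56 ± 0.25 in BAT (edgeR adjusted p = 0.00796) and 3.52 ± 0.29 in sWAT (adjusted p = 0.000202).

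Hsd17b7, the ketoreductase of the same demethylation (chromosome 1, 169949535 to 169969241), had the largest log2 fold change of the 30 in BAT. Its BAT cold libraries were at 17.2, 14.4 and 29.8 CPM and the thermoneutral ones at 2.57, 4.08 and 4.33. Its sWAT cold libraries were at 13.9, 9.68 and 11.0 CPM and the thermoneutral ones at 2.55, 1.94 and 2.53. The cold libraries were above the thermoneutral ones throughout, with BAT cold library 3 the highest. The changes were 2.53 ± 0.38 in BAT (edgeR adjusted p = 0.00698) and 2.30 ± 0.30 in sWAT (adjusted p = 0.00067).

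Sc5d, a desaturase late in the pathway (chromosome 9, 42251595 to 42264256), was at 242, 226 and 289 CPM in BAT cold against 48.4, 63.9 and 82.9 in BAT thermoneutral. In sWAT it was at 240, 158 and 166 in cold and 18.8, 26.2 and 25.5 at thermoneutrality. It was thus among the more abundant transcripts of the 30 in cold in both tissues, without overlap between temperatures. The log2 fold changes were 2.00 ± 0.30 in BAT (edgeR adjusted p = 0.00646) and 3.01 ± 0.30 in sWAT (adjusted p = 0.000308). Cyp51, which removes the first methyl group from lanosterol, was at 55.5, 51.6 and 64.1 CPM in BAT cold against 24.4, 26.6 and 36.9 in BAT thermoneutral. Its sWAT libraries were at 53.5, 35.7 and 52.4 in cold and 10.8, 18.6 and 11.3 at thermoneutrality, again without overlap. The changes of Cyp51 were 1.01 ± 0.26 in BAT (adjusted p = 0.0415) and 1.81 ± 0.30 in sWAT (adjusted p = 0.00181). The BAT call of Cyp51 was lost with upper-quartile scaling (0.0694) and without cold library 1 (0.126), 2 (0.123) or 3 (0.0536) or thermoneutral library 1 (0.146) or 2 (0.143), in a range of 0.000506 to 0.146.

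Msmo1, the oxidase that acts before NSDHL on the methyl groups of the ring, was at 25.8, 12.3 and 15.9 CPM in sWAT cold against 4.07, 8.16 and 7.19 in sWAT thermoneutral. The groups did not overlap, with a log2 fold change of 1.49 ± 0.38 (edgeR adjusted p = 0.0116), and of 0.79 (adjusted p = 0.0541) with the GC correction, in a range of 0.000724 to 0.118. In BAT the cold libraries of Msmo1, at 17.0, 14.4 and 23.9 CPM, were also above the thermoneutral ones, at 11.9, 12.2 and 7.18, with a change of 0.87 ± 0.32 (adjusted p = 0.114). Ebp, the sterol isomerase, and Dhcr7, a reductase of the last steps, did not pass the threshold in either tissue. Ebp was at 0.30 ± 0.28 in BAT (adjusted p = 0.507) and -0.05 ± 0.21 in sWAT (adjusted p = 0.867). Dhcr7 was at 0.50 ± 0.27 in BAT (adjusted p = 0.257) and 0.27 ± 0.28 in sWAT (adjusted p = 0.45).

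Reduction of the double bond that CYP51 leaves can be carried out by Tm7sf2 or by Lbr, which is also a receptor of the inner nuclear membrane that binds lamin B. Lbr was at 7.03, 6.27 and 7.48 CPM in BAT cold against 24.2, 13.5 and 12.2 in BAT thermoneutral, and at 19.8, 11.6 and 13.9 in sWAT cold against 33.0, 29.6 and 38.9 in sWAT thermoneutral. Cold libraries were all lower in both tissues. Lbr had log2 fold changes of -1.21 ± 0.32 in BAT (edgeR adjusted p = 0.0439) and -1.16 ± 0.28 in sWAT (adjusted p = 0.00904). The BAT call of Lbr was lost with limma-voom (0.0548) and without cold library 1 (0.145) or 2 (0.16) or thermoneutral library 1 (0.126) or 2 (0.0978), in a range of 0.00115 to 0.16. Tm7sf2 was at 7.34, 7.27 and 2.82 CPM in BAT cold against 12.6, 9.83 and 3.44 in BAT thermoneutral, and at 7.06, 9.83 and 7.76 in sWAT cold against 15.3, 12.4 and 7.28 in sWAT thermoneutral. The groups overlapped in both tissues, and the changes of Tm7sf2 were -0.52 ± 0.53 in BAT (adjusted p = 0.547) and -0.51 ± 0.32 in sWAT (adjusted p = 0.216). Per kilobase of exon, the level of Lbr was 0.798 to 2.46 times that of Tm7sf2 in BAT cold, 1.27 to 3.29 times in BAT thermoneutral, 1.09 to 2.59 times in sWAT cold against 1.99 to 4.94 times in sWAT thermoneutral. These ranges overlapped between temperatures in both tissues. Between BAT libraries of the same number the ratio was lower in cold each time, at 0.886 against 1.78 for number 1, 0.798 against 1.27 for number 2 and 2.46 against 3.29 for number 3. Exons of Tm7sf2 share 12.1% of their length with Vps51 on the same strand, so reads there cannot be assigned with certainty. Those of Lbr share 9.24% with Dnah14 on the opposite strand.

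Of the 20 synthesis enzymes as a whole, 8 were higher (40%) and 2 lower (10%) in BAT, beside 6.82% and 5.34% of all genes, and 11 higher (55%) and 1 lower (5%) in sWAT, beside 25.1% and 24.1%. Their median log2 fold changes were 0.85 in BAT and 1.23 in sWAT, against -0.04 and 0.00 for all genes. Their summed level was 1218 to 1492 CPM in BAT cold against 811 to 892 in BAT thermoneutral, and 977 to 1090 in sWAT cold against 329 to 464 in sWAT thermoneutral. The summed levels did not overlap between temperatures in either tissue.

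Of the 6 genes that control SREBP2, 0 passed the threshold of edgeR's test in BAT, beside 12.2% of all genes, and all 6 had a positive log2 fold change there (0.49 to 1.04). In sWAT 3 were higher in cold and 1 lower, beside 25.1% and 24.1% of all genes. In BAT 3 of the 6 had an unadjusted p under 0.05, 2 passed with DESeq2 and 0 with limma-voom. Srebf2, which encodes SREBP2, was at 78.8, 82.7 and 35.9 CPM in BAT cold against 44.8, 39.4 and 21.8 in BAT thermoneutral, where the libraries numbered 3 were again the lowest. In sWAT it was at 50.6, 70.7 and 53.6 CPM in cold and 106, 82.1 and 82.4 at thermoneutrality, all lower in cold. The log2 fold changes of Srebf2 were 0.94 ± 0.40 in BAT (edgeR adjusted p = 0.155) and -0.64 ± 0.25 in sWAT (adjusted p = 0.0575). Scap, the escort of SREBP2, was at 90.6, 105 and 46.7 CPM in BAT cold against 43.7, 46.8 and 30.8 in BAT thermoneutral, and at 37.8, 73.0 and 50.6 in sWAT cold against 78.1, 70.2 and 68.1 in sWAT thermoneutral. The groups of Scap overlapped in both tissues, by 1 library in each. The changes were 1.04 ± 0.35 in BAT (adjusted p = 0.0868) and -0.43 ± 0.27 in sWAT (adjusted p = 0.215). With the library number as a block, the BAT values were 0.91 for Srebf2 (adjusted p = 0.0275, in a range of 0.00113 to 0.387) and 0.99 for Scap (adjusted p = 0.0287, in a range of 0.000555 to 0.286). Without BAT cold library 3 they were 1.24 (adjusted p = 0.0389) and 1.32 (adjusted p = 0.0182). In sWAT the GC correction turned Srebf2 to 0.23 and Scap to 0.48, neither past the threshold.

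Insig1 and Insig2 encode the proteins that retain SCAP, and Insig1 is itself a target of SREBP2. Insig1 was at 349, 328 and 365 CPM in BAT cold against 197, 221 and 200 in BAT thermoneutral, and at 336, 363 and 300 in sWAT cold against 93.2, 164 and 66.8 in sWAT thermoneutral. Cold libraries were above thermoneutral ones in both tissues, and the cold libraries of the tissues overlapped. Insig1 had log2 fold changes of 0.80 ± 0.25 in BAT (edgeR adjusted p = 0.069) and 1.63 ± 0.36 in sWAT (adjusted p = 0.00629). The BAT value of Insig1 passed with DESeq2 (0.00808), the GC correction (0.0419) and without both BAT libraries numbered 3 (0.0116), in a range of 0.00808 to 0.212 over 17 alternatives. Insig2 was at 31.2, 30.8 and 33.9 CPM in BAT cold against 20.8, 27.5 and 20.3 in BAT thermoneutral, and at 30.8, 35.7 and 35.9 in sWAT cold against 6.15, 14.0 and 23.0 in sWAT thermoneutral. The sWAT thermoneutral libraries of Insig2 were spread widely. Its changes were 0.53 ± 0.25 in BAT (adjusted p = 0.195) and 1.24 ± 0.42 in sWAT (adjusted p = 0.0363). The sWAT call of Insig2 was lost with upper-quartile scaling (0.0509), the GC correction (0.101) and when sWAT cold library 2 (0.066) or 3 (0.0812) or thermoneutral library 2 (0.105) was omitted, in a range of 0.0102 to 0.105. Per kilobase, Insig1 was at 11.9 to 12.6 times the level of Insig2 in BAT cold and 9.03 to 11.1 times in BAT thermoneutral, higher in every cold library. In sWAT the ratio overlapped between temperatures, at 9.38 to 12.2 times in sWAT cold against 3.26 to 17.0 times in sWAT thermoneutral.

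The proteases that cut SREBP2 are encoded by Mbtps1, which cuts first, and Mbtps2, which cuts within the membrane. Mbtps1 was at 65.0, 73.8 and 71.7 CPM in sWAT cold against 112, 105 and 115 in sWAT thermoneutral, and at 82.4, 81.9 and 64.8 in BAT cold against 54.8, 60.1 and 53.7 in BAT thermoneutral. Cold libraries were all lower in sWAT and all higher in BAT. Mbtps1 had log2 fold changes of -0.66 ± 0.22 in sWAT (edgeR adjusted p = 0.034) and 0.49 ± 0.24 in BAT (adjusted p = 0.215). The sWAT call of Mbtps1 was lost in 8 of 16 alternatives, among them the block (0.087) and the omission of cold library 2 (0.0987) or 3 (0.118) or thermoneutral library 1 (0.0724), 2 (0.0639) or 3 (0.0915), in a range of 0.0196 to 0.118. Mbtps2 was at 11.4, 8.01 and 8.92 CPM in sWAT cold against 2.86, 5.64 and 4.39 in sWAT thermoneutral, without overlap, with a change of 1.15 ± 0.33 (adjusted p = 0.0185). With the GC correction the sWAT value of Mbtps2 was -0.15 (adjusted p = 0.626), and its GC content, 40.0%, was the lowest of the 30. In BAT Mbtps2 was at 9.07, 7.42 and 17.6 CPM in cold and 6.78, 7.62 and 6.01 at thermoneutrality, with a change of 0.79 ± 0.37 (adjusted p = 0.199).

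The 4 genes of uptake, transport and efflux were mixed, with 1 higher in BAT, beside 6.82% of all genes. In sWAT 1 was higher and 1 lower (25% each), near the 25.1% and 24.1% of all genes. Abcg1, a transporter that passes cholesterol to high-density lipoprotein and is abundant in macrophages (chromosome 17, 31057675 to 31117988), was at 21.0, 23.0 and 14.9 CPM in BAT cold against 6.56, 6.48 and 3.91 in BAT thermoneutral. In sWAT it was at 21.6, 20.0 and 17.4 CPM in cold and 70.4, 53.6 and 61.5 at thermoneutrality. Cold libraries were all higher in BAT and all lower in sWAT, and the cold groups of the tissues overlapped. The log2 fold changes of Abcg1 were 1.84 ± 0.32 in BAT (edgeR adjusted p = 0.0108) and -1.66 ± 0.23 in sWAT (adjusted p = 0.00091). The BAT call of Abcg1 was lost without cold library 2 (1.70, adjusted p = 0.0549), in a range of 3.96e-06 to 0.0549, and the sWAT call held in each of 16 alternatives. Beside the sWAT values stand the macrophage and lymphocyte marker sums, which were higher in each sWAT thermoneutral library than in any sWAT cold library. Gene by gene, 6 of the 12 macrophage markers were lower in sWAT cold, 1 was higher and 5 were neither, beside 24.1% lower and 25.1% higher over all genes. The part of these markers in the sWAT value was not tested, and in BAT the macrophage sums were no higher in cold (120 to 133 CPM) than at thermoneutrality (128 to 196 CPM).

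Abca1, which loads cholesterol and phospholipid on apolipoprotein A-I, was at 180, 118 and 129 CPM in sWAT cold against 60.4, 64.7 and 91.5 in sWAT thermoneutral, all higher in cold. In BAT it was at 97.1, 105 and 176 in cold and 113, 113 and 108 at thermoneutrality, where only cold library 3 was above the thermoneutral ones. Abca1 had log2 fold changes of 0.98 ± 0.29 in sWAT (edgeR adjusted p = 0.0229) and 0.23 ± 0.30 in BAT (adjusted p = 0.647). The sWAT call of Abca1 was lost under the block (0.0542) and without thermoneutral library 1 (0.0673) or 2 (0.0878), in a range of 0.0046 to 0.0906. Per kilobase, the level of Abca1 was 12.1 to 19.5 times that of Abcg1 in BAT thermoneutral, 3.21 to 8.34 times in BAT cold, 0.604 to 1.05 times in sWAT thermoneutral and 4.15 to 5.88 times in sWAT cold. The ratio was thus lower in cold in BAT and higher in cold in sWAT, in every library. Mylip, a ubiquitin ligase that sends lipoprotein receptors to degradation, was at 24.6, 30.3 and 29.5 CPM in BAT cold against 51.5, 38.8 and 66.4 in BAT thermoneutral, without overlap. Its changes were -0.84 ± 0.27 in BAT (adjusted p = 0.0792) and -0.51 ± 0.29 in sWAT (adjusted p = 0.174), or -0.84 (adjusted p = 0.00951, in a range of 0.00951 to 0.45) without sWAT cold library 1. The BAT value of Mylip passed in 5 of 17 alternatives, which were upper-quartile scaling (0.0469), DESeq2 (0.0457), the GC correction alone (0.0216) or with the block (0.0245) and the omission of both BAT libraries numbered 3 (0.0155), in a range of 0.0155 to 0.275. Stard4, a carrier of cholesterol between membranes, was at 0.32 ± 0.36 in BAT (adjusted p = 0.592) and -0.25 ± 0.35 in sWAT (adjusted p = 0.57).

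The difference between the responses of the tissues, tested as an interaction over all 12 libraries, passed the threshold for 10 of the 30 genes, 6 with a higher value in sWAT and 4 with a lower one. Over all 16365 genes tested, 25.1% passed, 17.3% higher and 7.85% lower in sWAT. The difference, sWAT minus BAT on the log2 scale, was 2.77 ± 0.34 for Fdft1 (edgeR adjusted p = 0.000538), 2.45 ± 0.49 for Idi1 (adjusted p = 0.00422), 2.02 ± 0.34 for Nsdhl (adjusted p = 0.00191) and -3.44 ± 0.38 for Abcg1 (adjusted p = 0.000356). It was -1.09 ± 0.29 for Mbtps1 (adjusted p = 0.0164). These 5 were past the threshold in each of 23 alternatives, although the GC correction took Idi1 to 1.25 and Nsdhl to 1.36. The other 5 were Acat2 (1.5 ± 0.37), Hmgcs1 (1.43 ± 0.39), Ggps1 (1.79 ± 0.61), Srebf2 (-1.51 ± 0.49) and Scap (-1.41 ± 0.46), each with an adjusted p under 0.05 that at least 2 alternatives took above it. Sqle, with a larger response in BAT than in sWAT, had a difference of -0.96 ± 0.35 (adjusted p = 0.0598), which 10 of 23 alternatives brought past the threshold. With scaling by DESeq2's size factors the split was 5 higher and 5 lower, beside 14.8% and 10.6% of all genes. With the GC correction it was 4 and 6, beside 11.9% and 8.02%. Without BAT cold library 1 or 2, 5 and 6 members passed, beside 14.4% of all genes in either case.

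For Acat2 the adjusted p ran from 0.00373 to 0.058 and the call was lost without BAT cold library 1 (0.058) or sWAT cold library 2 (0.0501). For Hmgcs1 it ran from 0.0073 to 0.572, with the call lost under the GC correction (0.32, adjusted p = 0.572) and without BAT cold library 1 (0.0976) or 2 (0.102), BAT thermoneutral library 2 (0.0794) or sWAT cold library 1 (0.0556). Ggps1 was past the threshold in 8 of 23 alternatives, in a range of 0.0051 to 0.671, and was lost without any one library other than BAT cold library 3 or sWAT cold library 2. Srebf2 was past it in 15 of 23 (0.00374 to 0.0988) and Scap in 14 of 23 (0.00398 to 0.185). Both were lost under the GC correction (-0.70 and -0.54) and without BAT cold library 1 (0.0556 for Srebf2, 0.0524 for Scap) or 2 (0.0589 and 0.061), BAT thermoneutral library 3 (0.0701 and 0.0833), sWAT cold library 3 (0.0841 and 0.0884) or sWAT thermoneutral library 1 (0.0792 and 0.0757) or 2 (0.0561 and 0.0668), and Scap also without sWAT thermoneutral library 3 (0.0538).

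**Figure D4:**
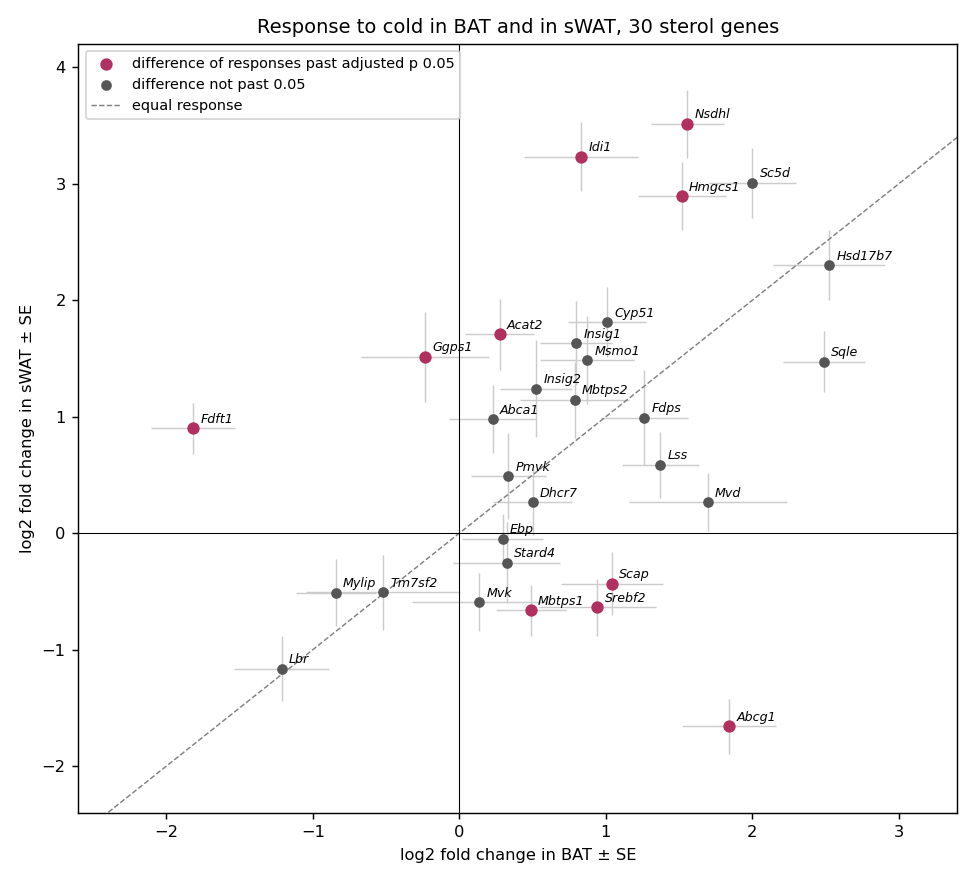
Log2 fold change of each sterol gene in BAT (x) against that in sWAT (y), cold against thermoneutral, with standard errors, and with the genes whose responses differed between tissues marked. Fdft1 and Abcg1 lie in opposite corners, and Sqle, Hsd17b7, Sc5d and Nsdhl lie to the upper right.

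Compared at thermoneutrality, 9 of the 30 genes were higher in BAT than in sWAT and 6 lower, beside 58.7% of all genes tested, 29.9% higher and 28.8% lower. This comparison shares its sWAT libraries with the response of sWAT to cold. The largest log2 differences, BAT minus sWAT, were 3.08 ± 0.26 for Fdft1 (edgeR adjusted p = 1.96e-06), 2.80 ± 0.37 for Idi1 (adjusted p = 4e-05) and 2.47 ± 0.25 for Nsdhl (adjusted p = 6.83e-06) among those higher in BAT. Hmgcs1 (1.99), Ggps1 (1.91), Acat2 (1.90), Sc5d (1.49), Cyp51 (1.14) and Insig1 (0.96) were the other 6 higher in BAT. Those lower in BAT were Abcg1 (-3.43 ± 0.29, adjusted p = 2.13e-06), Mvd (-1.43), Srebf2 (-1.33), Lbr (-1.0), Mbtps1 (-0.95) and Scap (-0.81). Under the GC correction Ggps1 (0.44, adjusted p = 0.24), Cyp51 (0.55, 0.064), Sc5d (0.43, 0.092), Insig1 (0.65, 0.0803) and Mvd (-0.55, 0.0761) were not past the threshold, and Scap turned to 0.11 (adjusted p = 0.63). The correction also took Idi1 to 1.60, Nsdhl to 1.84, Hmgcs1 to 0.91, Srebf2 to -0.51 and Lbr to -1.84, all still past the threshold. Insig1 was also lost without BAT thermoneutral library 2 (0.0512) or sWAT thermoneutral library 1 (0.0593) or 3 (0.0707), in a range of 0.00214 to 0.0803. Mvd was lost without BAT thermoneutral library 3 (0.0625), in a range of 0.00146 to 0.0761, and Scap without BAT thermoneutral library 1 (0.0653) or 3 (0.152), sWAT cold library 3 (0.0617) or sWAT thermoneutral library 1 (0.104), 2 (0.0793) or 3 (0.0688), in a range of 0.0139 to 0.665.

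In cold, few of the 30 genes differed between the tissues past the threshold. None passed the threshold as higher in BAT and 1, Lbr, as lower (-1.11 ± 0.30, edgeR adjusted p = 0.0278), beside 1.19% and 11.1% of all genes tested and 12.3% in both directions. Of the genes with a positive difference, 2 had an unadjusted p under 0.05, 2 passed with DESeq2 and 0 with limma-voom. The Lbr call was lost when any of 6 libraries was left out, in a range of 0.0149 to 0.225: BAT cold library 1 (0.138), 2 (0.171) or 3 (0.0815), BAT thermoneutral library 2 (0.0726), or sWAT cold library 1 (0.225) or 3 (0.0512). Hsd17b7 had the largest positive difference, 0.84 ± 0.32 (adjusted p = 0.107), and passed with DESeq2 and with the GC correction. The libraries of BAT and sWAT in cold overlapped for 21 of the 30 genes, with 8 all higher and 1 all lower in BAT, beside 12.9% and 22.1% of all genes. A p above the threshold does not show that the levels were equal.

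Levels of different genes are compared per kilobase of exon, with all annotated exons of a gene merged. Insig1 was the highest of the 30 in BAT thermoneutral (66.6 CPM per kb), BAT cold (112) and sWAT cold (108), and second to Pmvk in sWAT thermoneutral (34.9 against 37.9). Mbtps2 was the lowest in all 4 groups, and Hsd17b7 next to it in both thermoneutral groups. Fdft1 was the fourth in BAT thermoneutral (50.7) and the seventh in BAT cold (14.0), and Hmgcs1 went from the fifth (24) to the second (66.6).

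**Figure D5:**
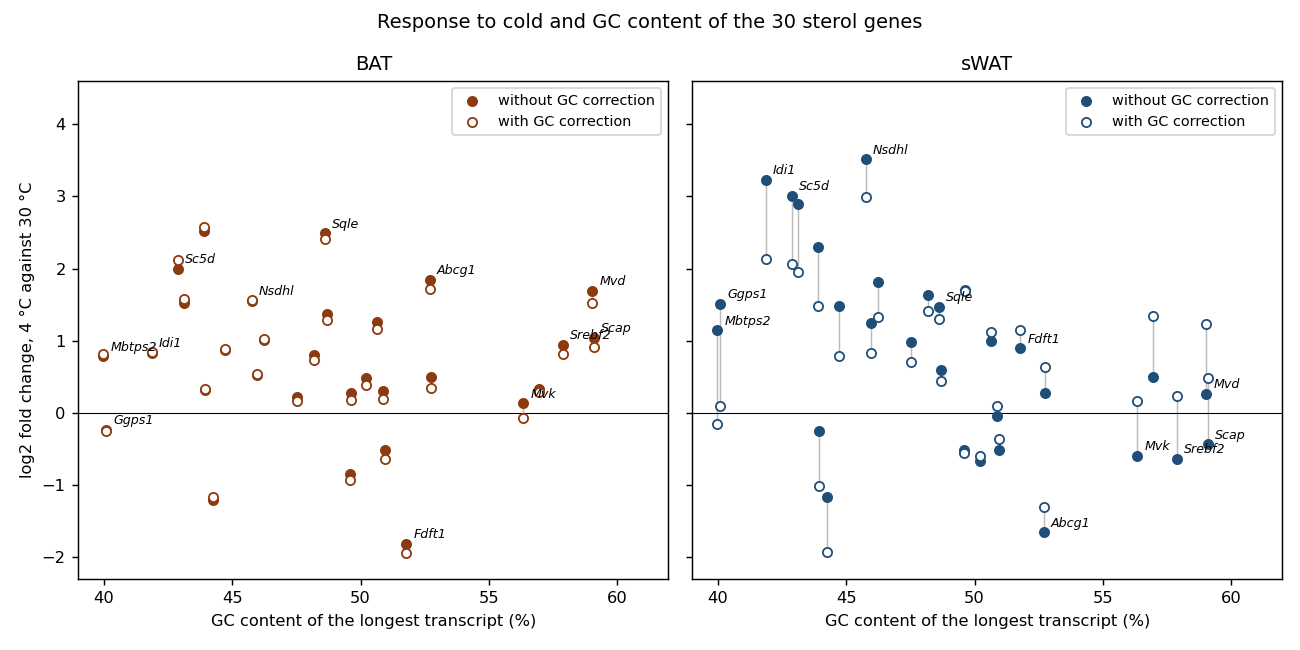
Log2 fold change of each sterol gene, cold against thermoneutral, against the GC content of its longest transcript in percent, for BAT (left) and sWAT (right); filled points are without and open points with the correction for GC content, joined by a line. In sWAT the GC-poor genes such as Idi1, Sc5d, Ggps1 and Mbtps2 move down and the GC-rich genes Mvd, Scap, Srebf2 and Mvk move up with the correction.

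In sWAT the log2 fold changes followed GC content, for all genes as for the sterol genes. Spearman's rho between the sWAT response and GC content was -0.63 over the 30 genes and -0.51 over all 15331 genes with a GC value. After the correction it was -0.20 and -0.03. In BAT it was -0.09 over the 30 genes and 0.11 over all genes. These are descriptions across genes of the same libraries. With the correction, 14 of the 18 sWAT calls remained, among them Nsdhl (2.99), Idi1 (2.13), Sc5d (2.07), Hmgcs1 (1.96), Fdft1 (1.15), Lbr (-1.93) and Abcg1 (-1.30). Ggps1, Mbtps2, Msmo1 and Insig2 were lost, and Mvd, Pmvk and Stard4 (-1.01, adjusted p = 0.0139) were gained. In all, 17 members passed in sWAT with the correction, beside 43.8% of all genes. Without both BAT libraries numbered 3, whose cold member has the largest mitochondrial share (53.8%) and the lowest GC slope (-0.72), all 11 BAT calls remained and 20 members passed, 15 higher and 5 lower, beside 44.7% of all genes.

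Other genes that handle sterols and prenyl groups were counted from lists made by function. Of 15 genes that use prenyl groups (for coenzyme Q, dolichol and protein prenylation), 2 were higher (13.3%) and 1 lower (6.67%) in BAT in cold, beside 6.82% and 5.34% of all genes. In sWAT 5 were higher (33.3%) and 1 lower (6.67%), beside 25.1% and 24.1%, so that the share called, 40%, was below the 49.2% of all genes. The genes called in BAT were Pdss1 (1.14 ± 0.28) and Pdss2 (1.04 ± 0.28), the subunits of the synthase that makes the side chain of coenzyme Q, and Trit1 (-1.63 ± 0.29), which adds an isopentenyl group to transfer RNA. In sWAT the alpha and beta subunits of the Rab geranylgeranyl transferase went opposite ways, with Rabggtb at 1.94 ± 0.32 and Rabggta at -1.21 ± 0.23. Of 19 genes of sterol sensing and protein turnover in the endoplasmic reticulum, 3 were higher (15.8%) and 1 lower (5.26%) in BAT, and 8 higher (42.1%) and 1 lower (5.26%) in sWAT, where the share called, 47.4%, was near that of all genes. Cyb5b, an electron carrier of the cytochrome b5 family, was at 1.21 ± 0.26 in BAT, and Rnf139, a ubiquitin ligase of this membrane, at 2.60 ± 0.29 in sWAT. Of 20 genes of LXR signalling, storage and lysosomal export, 4 were higher (20%) and 1 lower (5%) in BAT, and 5 higher and 5 lower in sWAT (25% each), near the background there. Lipa, the lysosomal acid lipase that frees cholesterol from its esters, was higher in cold in both tissues, at 2.18 ± 0.35 in BAT (edgeR adjusted p = 0.00799) and 2.79 ± 0.35 in sWAT (adjusted p = 0.00056). Scarb2, a lysosomal membrane protein, was likewise at 1.47 ± 0.28 in BAT and 2.10 ± 0.27 in sWAT, and Gramd1a, a sterol carrier at contacts with the plasma membrane, was at -2.09 ± 0.30 in sWAT.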

How the data were processed

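The deposited table holds raw counts per gene that the authors made for the 12 libraries, whole numbers for 23163 gene symbols, and 0 of its columns were without a sample. STAR, DESeq2 and the mm10 build are named in the submitters' processing notes. Which tool, strand setting and annotation the counting used is not given in the sources used here. The names of 2 columns, BAT cold library 1 and sWAT cold library 2, mention merging, which no source explains.

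From these counts, genes were kept by filterByExpr, scaled by TMM and tested with edgeR 4.0.16's quasi-likelihood test (limma 3.58.1, R 4.3.3), with Benjamini-Hochberg adjustment over all genes tested, a threshold of 0.05 and no minimum fold. The 6 libraries of a tissue gave its response to cold, and a fit over 12 libraries gave the difference of responses and BAT against sWAT at each temperature. An SE is the log2 fold change divided by the square root of F. CPM are scaled by total and TMM factor. The tests were tried on simulated data before use. Positions, exon lengths and GC content come from a GENCODE annotation of mm10, matched by symbol (22240 genes, 96.0%, all 30 members). Promoters come from RefSeq tables of build GRCm38.p6.

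The members and all lists were chosen with earlier results of these data known. All members may be named. Values in every library are given for those past the threshold in BAT, sWAT or the difference of responses and for pairs acting at the same step, and at most 3 genes are named from each other list and comparison. Mvd and Mylip lie outside that rule, and their values in every library were added after they were seen.

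The experiment numbers 1 to 3 recur in all groups and their meaning is not given. BAT cold and thermoneutral libraries with the same number deviated together (correlations of 0.451, 0.115 and 0.392 over 11647 genes), so the number was taken to pair the BAT libraries, from the data alone. Some libraries of unlike number did so too, cold 1 with thermoneutral 2 (0.345) and cold 2 with thermoneutral 1 (0.156), and 4 of the 6 BAT libraries correlated best with their own number. No 2 libraries were duplicates.

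Alternatives were scaling by DESeq2's size factors (RLE) or upper quartiles, totals without mitochondrial genes, no filter, DESeq2 1.42.0, limma-voom, no robust fit, the number as a block, a GC correction (lowess of log2 counts on GC content, span 0.3, prior count 2), both together, and each library left out. Leaving out both BAT libraries numbered 3 was added after seeing the data.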

Additional observations from a re-analysis of the deposited data

Results flagged for a closer look

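The difference in response to cold between sWAT and BAT passed the threshold, by the interaction test over all 12 libraries, for 10 of the 30 sterol genes. Over all 16365 genes tested 25.1% passed, 17.3% with a positive and 7.85% with a negative difference. Among the sterol genes past it, the difference, sWAT minus BAT on the log2 scale, was positive for Acat2 (1.5), Hmgcs1 (1.43), Idi1 (2.45), Ggps1 (1.79), Fdft1 (2.77) and Nsdhl (2.02). It was negative for Srebf2 (-1.51), Scap (-1.41), Mbtps1 (-1.09) and Abcg1 (-3.44). Under the GC correction Hmgcs1, Ggps1, Srebf2 and Scap were not past the threshold. Fdft1 and Abcg1 also passed the threshold in each tissue alone, in opposite directions. The 3 sWAT thermoneutral libraries, which stand apart in mitochondrial share and GC slope, enter every one of these differences, and the part of that in them cannot be told apart from the response of sWAT.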

How the results depend on the processing

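Over the alternatives, 5 of the 11 BAT calls (Sqle, Sc5d, Hsd17b7, Nsdhl and Fdft1) held throughout, 12 of the 18 sWAT calls, 5 of the 10 differences and 9 of the 15 differences between tissues at thermoneutrality. Leaving out 1 library gave 6 to 14 calls in BAT (5 to 11 higher, 1 to 3 lower), 15 to 20 in sWAT (13 to 17 higher, 2 to 4 lower), 5 to 13 differences of responses (3 to 6 higher, 2 to 7 lower), 13 to 16 between tissues at thermoneutrality (8 to 10 higher, 4 to 7 lower) and 0 to 1 in cold (0 to 1 in each direction). The share of all genes called then ran from 3.01% to 16.5% in BAT and from 35.3% to 54.2% in sWAT. For the differences of responses it ran from 14.4% to 32.6%. In BAT limma-voom gave 1 lower call (4.89% of all genes), the GC correction 18 calls (21.4%), 15 of them higher (10.1%), and omission of both libraries numbered 3 gave 20 (44.7%), with 15 higher (22.4%) and 5 lower (22.3%). Between tissues in cold, DESeq2, the GC correction and block with GC correction each gave 3 calls (17%, 16.3% and 14.9% of all genes), 2 of them higher in BAT.

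With the library number as a block, BAT had 14 calls (12 higher, 2 lower), beside 19.2% of all genes (10.2% higher, 8.94% lower). In sWAT there were 15 (13 higher, 2 lower), beside 41.4% (21.0% higher, 20.4% lower). The differences of responses numbered 10, beside 25.8%. In sWAT the correlations between libraries of the same number were -0.252, 0.180 and -0.346, and 0 of 6 libraries correlated best with their own number. With 3 libraries per group this check cannot tell whether the number pairs the sWAT libraries. The block changed no call beyond those given for Mvd, Srebf2 and Scap in BAT and Abca1, Mbtps1 and Mbtps2 (adjusted p = 0.0545) in sWAT.

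Signs turned only for values that were not past the threshold, apart from Mbtps2 in sWAT and Scap between tissues. In BAT Mvk (0.14) turned under upper-quartile scaling (-0.042), limma-voom (-0.029), the block (-0.020), the GC correction (-0.078) and both together (-0.15), and ran from -0.11 to 0.53 with 1 library left out. With 1 library left out, Ggps1 ran from -0.94 to 0.024, Stard4 from -0.10 to 0.55 and Abca1 from -0.091 to 0.40 in BAT. Without both libraries numbered 3, Stard4 was at -0.14 and Abca1 at -0.11. In sWAT the GC correction alone, and with the block, turned Mvk (0.16, 0.17), Ebp (0.089, 0.089), Srebf2 (0.23, 0.24), Scap (0.48, 0.48) and Mbtps2 (-0.15, -0.13). With 1 library left out, the highest values of Ebp and Stard4 in sWAT were 0.016 and 0.026, and the lowest -0.11 and -0.51. Scap at thermoneutrality between tissues turned to 0.11 and 0.10. The cause of these changes was not tested.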
